A study of Mus musculus with 5 samples.

Results

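The genes described here are 10 genes of arginine breakdown and polyamine synthesis, measured in mouse lung natural helper cells on 5 expression arrays. They were Arg1, Arg2, Odc1, Srm, Sms, Sat1, Azin1, Smox, Oat and Ass1. They were chosen by name for their place in the pathway, with earlier results of these data known. Of these 10, 8 had a probe set that the array annotation ties to 1 gene symbol, among 19938 genes measured that way. Sms and Ass1 gave no value, since each of their 2 probe sets also carries a second symbol, Gm8234 and Gm5424.

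Natural helper cells belong to the group 2 innate lymphoid cells, which lack antigen receptors, make type 2 cytokines and, in the lung, are known to carry arginase 1. They were taken from the lungs of C57Bl/6 mice, naive and 6 to 8 weeks old, by flow cytometry as lineage-negative, Sca-1+, CD127+ and CD25+ cells with c-Kit absent or low. The unstimulated group held 3 samples lysed after the sort, and the stimulated group 2 samples kept for 3 days in culture medium with 60 ng/ml PMA, which switches on protein kinase C, and 500 ng/ml ionomycin, a calcium ionophore. No sample was cultured without the 2 agents, so culture and stimulation cannot be told apart. The labels name no separate mice or cultures, so the p-values below rest on the spread among these 5 samples alone, and that spread may be technical.

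Arginase splits arginine into ornithine and urea. Ornithine decarboxylase then makes putrescine, and the aminopropyltransferases spermidine synthase and spermine synthase build spermidine and spermine from it. Ornithine can also leave this route through ornithine aminotransferase, towards proline and glutamate, while argininosuccinate synthase serves the remaking of arginine from citrulline. Polyamines bind nucleic acids, and spermidine is the source of hypusine, a modified amino acid of the translation factor eIF5A, so growing lymphocytes are known to need them.

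All levels are log2 values from RMA, a summary of an array's probes, in which 1 unit is a doubling. The quartiles over all probe sets and arrays were 4.49 and 7.07, with a median of 5.64, and the median of single arrays ran from 5.63 to 5.66. Any 2 unstimulated arrays had a Pearson correlation of 0.980 to 0.988 across probe sets, the stimulated pair one of 0.989, and arrays of different groups 0.956 to 0.969 (probe sets are no independent replicates). Of 14 listed genes known in natural helper cells 12 were measured, and all 12 lay above the upper quartile on each unstimulated array, against 11 and 10 on the stimulated arrays. The markers Il1rl1 and Ly6a had no single-gene probe set. Xist, the RNA of the inactive X chromosome, read 9.65 ± 0.56 (SD, n = 3) in unstimulated and 4.13 ± 0.04 (SD, n = 2) in stimulated samples, and the labels give no sex, so a difference in sex between the groups cannot be told apart from the effect of treatment.

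The comparison asked how levels after PMA and ionomycin differed from those in freshly sorted cells. None of the 8 measured members passed the test, a limma fit over all 19938 genes with Benjamini-Hochberg adjusted p under 0.05, which called 1.70% of all genes (0.737% higher and 0.963% lower). Srm stood apart from the other members in size, at 3.04-fold higher after stimulation with an adjusted p of 0.0510. Odc1, the enzyme just before it in the route, was lower by 0.46 on the log2 scale, also without passing. At an unadjusted p under 0.05 there was 1 member higher, Srm, and 1 lower, Odc1, against 11.3% and 8.58% of all genes. The groups did not overlap for 2 members that were higher, Arg1 and Srm, and 2 that were lower, Odc1 and Azin1, where 18.6% and 14.0% of all genes did so. The median difference of the 8 members was 0.07, against 0 over all genes, and 6 of the 8 differences were above 0, as were 53.3% of those over all genes.

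**Figure D1:**
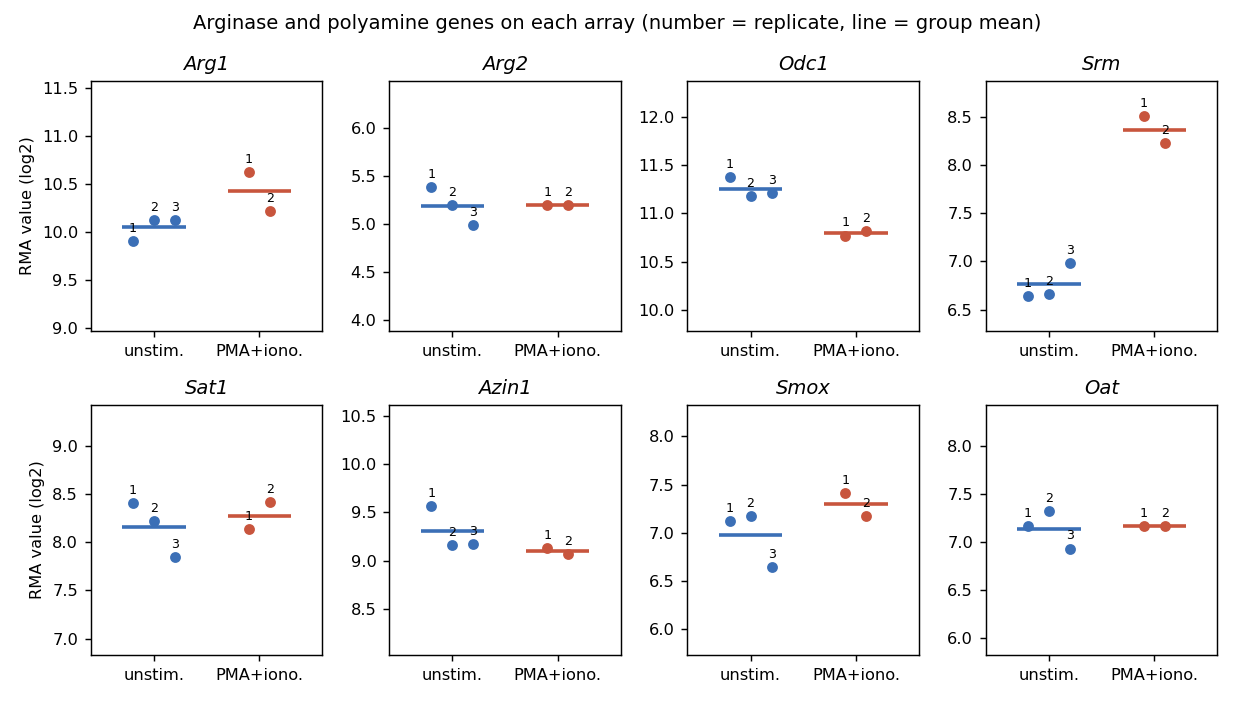
RMA values (log2, vertical axis) of the 8 measured members on the 3 unstimulated (blue) and 2 PMA and ionomycin (red) arrays, with the replicate number above each point and the group mean as a line. Each panel spans the same number of log2 units. The stimulated Srm values of 8.51 and 8.23 sit well above the unstimulated ones, and the Odc1 values sit lower in the stimulated group. For the other members the group means lie closer together than for Odc1. Their single values still spread, for Arg1 from 9.91 to 10.63 and for Smox from 6.65 to 7.41.

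Arg1 codes for the cytosolic arginase, known as the liver enzyme of the urea cycle and as a product of type 2 immune cells. It read 9.91, 10.12 and 10.12 on unstimulated arrays 1, 2 and 3, and 10.63 and 10.22 on stimulated arrays 1 and 2. All of these values lay far above the upper quartile of all probe sets, in fresh cells as well as in stimulated ones. Both stimulated values were above the 3 unstimulated ones, the second by little. The difference, stimulated minus unstimulated, was 0.37 ± 0.16 (SE, n = 3 and 2 arrays), or 1.29-fold, with a 95% interval of -0.09 to 0.83 and an adjusted p of 0.350. A difference at least as wide was seen in 21.1% of all genes. The size rested on stimulated array 1, since the difference was 0.17 without it and 0.58 without stimulated array 2.

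Macrophages are known to carry Arg1 too, and neutrophils can, so markers of both were read on the same arrays. Summed over 12 macrophage markers, unlogged values ran from 672 to 1129 on the unstimulated arrays and from 462 to 565 on the stimulated ones, and for 10 neutrophil markers from 421 to 1373 and from 290 to 292. Both sums were thus lower in the stimulated group. The macrophage receptor gene Csf1r stayed between 4.60 and 4.75 and Adgre1, which codes for F4/80, between 4.45 and 4.91 on all 5 arrays. The macrophage and neutrophil enzyme gene Lyz2 read 7.88, 7.50 and 6.49 in unstimulated samples and 4.11 and 3.98 in stimulated ones. Among the macrophage markers Chil3 (difference -1.25) and Retnla (-1.45) were also lower, with no overlap, while 2 of the 12 differences were above 0. The neutrophil protein gene S100a9 read 9.49, 8.15 and 6.91, then 4.97 and 5.09. Not all markers moved this way: the neutrophil sum differed mainly through S100a9, S100a8 (difference -2.66) and Retnlg (-1.45), while 4 of the 10 neutrophil differences were above 0, among them Ly6g with 0.30 and no overlap, and Mpo had the same value on all 5 arrays. None of the 12 macrophage and none of the 10 neutrophil markers passed the limma test, with 0 higher and 2 lower in each list at an unadjusted p under 0.05 (11.3% and 8.58% of all genes). For 8 measured T and B cell markers the sums ran from 1637 to 2602 unstimulated and from 1125 to 1460 stimulated. None was called, with 0 higher and 2 lower at an unadjusted p under 0.05 (11.3% and 8.58% of all genes). Cd3g, a T cell receptor subunit gene, lay at 9.43 or more on all arrays and made up most of each sum. Of the 8 differences 7 were below 0, and that of Cd5 (0.19) was above 0. Of the 12 natural helper cell markers 5 fell by the limma test and none rose, against 0.963% lower and 0.737% higher over all genes. At an unadjusted p under 0.05, 1 was higher and 8 were lower (11.3% and 8.58% of all genes). Differences above 0 were seen in 4 of the 12, among them Il2ra (0.19) and Il5 (0.71), both without overlap. The part of other cells in the members' levels was not tested. In bulk samples, fewer cells of a type and less RNA per cell cannot be told apart.

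**Figure D2:**
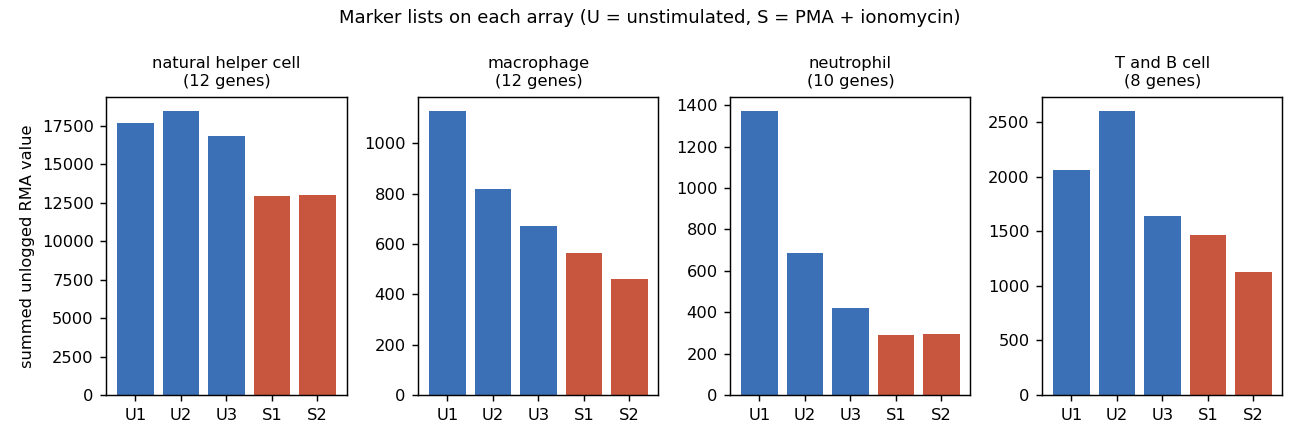
Summed unlogged RMA values (vertical axis, from 0) of the listed marker genes of 4 cell classes on unstimulated arrays U1 to U3 (blue) and stimulated arrays S1 and S2 (red). The macrophage and neutrophil sums are highest on U1, at 1129 and 1373, and lowest on the stimulated arrays.

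Arg2, which codes for the mitochondrial arginase, was dim in both groups. It read 5.39, 5.20 and 4.99 on unstimulated arrays 1 to 3 and 5.20 on each stimulated array. The unstimulated values thus lay on both sides of the stimulated ones. All lay under the median of all probe sets, and the difference was 0.01 ± 0.14 (SE), with a 95% interval of -0.39 to 0.40 and an adjusted p of 1. Between the groups, the log2 ratio of Arg1 to Arg2 differed by 0.37, with a two-sided exact permutation p of 0.4, where 3 against 2 arrays cannot go below 0.1.

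Odc1 codes for ornithine decarboxylase, the tightly controlled first step of polyamine synthesis. It read 11.38, 11.18 and 11.21 in unstimulated samples and 10.77 and 10.82 in stimulated samples. Every stimulated value was under every unstimulated one, by more than the spread within either group. The difference was -0.46 ± 0.08 (SE), which is 1.38-fold lower after stimulation, with a 95% interval of -0.68 to -0.25 and an adjusted p of 0.0856. A second probe set of Odc1 read 11.19, 11.06 and 11.10, then 10.71 and 10.83, and gave -0.35 ± 0.06. The 2 probe sets therefore had the same direction, and neither passed. Odc1 was called lower when dim genes, with a mean under the median probe set, were left out (adjusted p = 0.0379) or when arrays were centred on their medians (0.0456). In both groups it remained one of the bright genes, more than 3 log2 units above the upper quartile.

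Azin1 codes for antizyme inhibitor 1, a relative of ornithine decarboxylase that lacks its activity and frees the enzyme from antizyme. Its values were 9.57, 9.16 and 9.17 unstimulated and 9.13 and 9.07 stimulated. Unstimulated array 1 stood apart, and the other 4 arrays lay within a narrow range. The difference was -0.20 ± 0.16 (SE; 95% interval -0.66 to 0.25; adjusted p = 0.498), and -0.07 without unstimulated array 1. The log2 ratio of Odc1 to Azin1 was lower by 0.26 in the stimulated group (exact permutation p = 0.2, two-sided, smallest possible 0.1).

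Srm codes for spermidine synthase, which adds an aminopropyl group to putrescine. It read 6.64, 6.66 and 6.99 on unstimulated arrays 1, 2 and 3, and 8.51 and 8.23 on the stimulated arrays. The groups were separated by more than 1 log2 unit, and Srm lay under the upper quartile of all probe sets in every unstimulated sample and above it in both stimulated ones. The difference was 1.61 ± 0.16 (SE; 95% interval 1.14 to 2.07), a 3.04-fold higher level with an interval of 2.20 to 4.21. Only 1.52% of all genes differed by as much in either direction. The adjusted p of 0.0510 missed the threshold, and 7 of 16 other settings put it under, among them the same filter on dim genes (0.0181) and centring each array (0.0211). Leaving out any single array gave 1.47 to 1.75 with adjusted p from 0.0650 to 0.167, and unstimulated array 3 as the lone unstimulated array gave 1.38 (0.259).

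**Figure D3:**
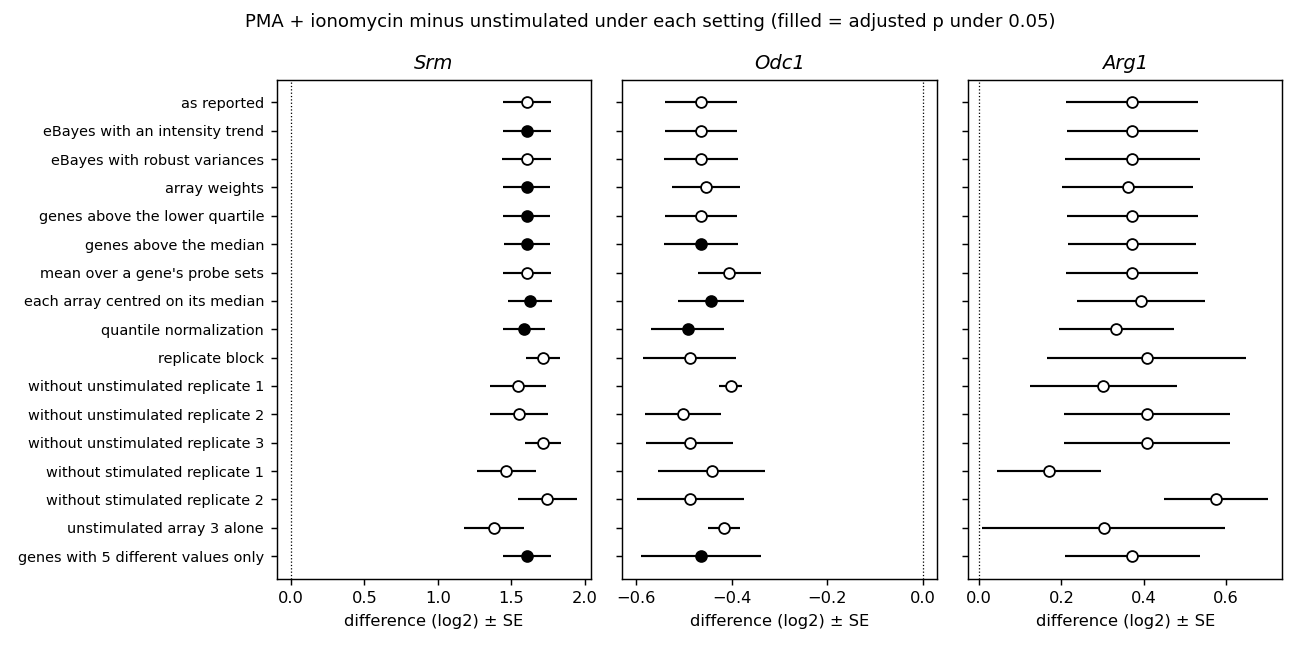
Difference between PMA and ionomycin and unstimulated samples (log2, horizontal axis, with its SE as a bar) for Srm, Odc1 and Arg1 under each setting on the vertical axis, with filled points where the adjusted p was under 0.05. Srm stays between 1.38 and 1.75 and Odc1 between -0.50 and -0.40, and Arg1 ranges from 0.17 to 0.58 with no filled point.

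The 5 genes whose centred values lay closest to those of Srm over the 5 arrays, by Euclidean distance, were Farsb, Tfrc, Ddx1, Mrps22 and Aimp2, at distances of 0.17 to 0.25. Farsb codes for a subunit of phenylalanyl-tRNA synthetase, Tfrc for the transferrin receptor, Ddx1 for an RNA helicase, Mrps22 for a mitochondrial ribosomal protein and Aimp2 for a scaffold of the tRNA synthetase complex. Their differences ran from 1.46 to 1.54. For Arg1 the closest were Emc6, Gstcd, Cox14, Senp8 and Dus1l, at 0.045 to 0.075, with differences of 0.31 to 0.40. All 10 were chosen on the values given for them, so their direction and size are a description and support nothing about Srm or Arg1.

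Sat1 and Smox break polyamines down, the first by acetylating spermidine and spermine and the second by oxidizing spermine. Sat1 read 8.41, 8.22 and 7.84 unstimulated and 8.14 and 8.42 stimulated, so that the groups overlapped. Its difference of 0.12 ± 0.22 (SE; 95% interval -0.50 to 0.74; adjusted p = 0.764) turned to -0.04 without unstimulated array 3 and to -0.02 without stimulated array 2. Smox read 7.12, 7.17 and 6.65, then 7.41 and 7.17. Unstimulated array 3 was the lowest for both genes. The difference of Smox was 0.31 ± 0.21 (SE; 95% interval -0.30 to 0.93; adjusted p = 0.475), and 0.15 without that array. For both genes the interval still holds changes of more than 1.5-fold.

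Oat codes for ornithine aminotransferase, the mitochondrial enzyme that turns ornithine towards proline. It read 7.16, 7.32 and 6.93 unstimulated and 7.16 on both stimulated arrays, near the upper quartile of all probe sets. The difference was 0.02 ± 0.13 (SE; 95% interval -0.36 to 0.41; adjusted p = 0.969). Values equal to 5 decimals on 2 or more arrays occurred in Arg2 and Oat, each on 3 arrays, and in Smox on 2, so their spread rests on fewer distinct values.

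Beyond the members, 61 further genes in 8 lists cover the rest of the route, of which 52 were measured. Klf4 fell, none rose, and 51 were not called (background 0.963% lower and 0.737% higher). The median difference was 0.00, against 0 over all genes. At an unadjusted p under 0.05 there were 5 higher and 7 lower of the 52, beside 11.3% higher and 8.58% lower over all genes.

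Klf4, a transcription factor gene that in macrophages is known to act with STAT6 on Arg1, read 8.38, 8.18 and 8.06 unstimulated and 5.82 and 5.22 stimulated. It fell by 2.68 (SE 0.23, log2 scale, adjusted p = 0.0441), from above the upper quartile of all probe sets to near or under the median. The call was lost without any 1 of the 3 unstimulated arrays (adjusted p from 0.0861 to 0.155) and without stimulated array 2 (0.0501), and in these fits it decreased by 2.38 or more. Robust variances (0.0608) and the replicate block (0.171) ended the call too. Cebpb, which codes for another regulator of Arg1 in macrophages, read 6.65, 6.64 and 6.52, then 5.89 and 5.70, and its difference of -0.81 ± 0.08 (SE) had an adjusted p of 0.0510. Myc, whose product is a known activator of Odc1 and Srm, differed by -0.37 ± 0.21 (adjusted p = 0.467), and its groups overlapped. Mycn, from the same list, read 6.37, 6.59 and 6.54 unstimulated and 5.58 and 5.85 stimulated. Its difference was -0.78 ± 0.12 (SE, adjusted p = 0.0808), without overlap. None of the other 6 regulators passed.

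Of 10 genes for arginine and ornithine transport, all measured, none was called. Slc7a3, which codes for a cationic amino acid transporter of the plasma membrane, differed most: 5.41, 5.10 and 4.84 unstimulated against 6.78 and 6.56 stimulated. The difference was 1.55 ± 0.21 (SE), or 2.93-fold (adjusted p = 0.0687). Slc7a1, another cationic amino acid transporter gene, differed by 0.39 ± 0.12 (adjusted p = 0.213). In the other direction lay Slc25a2, which codes for a mitochondrial ornithine carrier, with -1.10 ± 0.28 (adjusted p = 0.162), and Slc3a2, the heavy chain of several amino acid transporters, with -0.88 ± 0.25 (adjusted p = 0.183). The list thus held 2 genes in each direction of 10 at an unadjusted p under 0.05, where all genes had 11.3% higher and 8.58% lower, and its median difference was 0.02.

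None of the 13 genes of the arginine and urea cycle list was called. Gatm, which codes for the enzyme that uses arginine for creatine synthesis, read 4.27, 4.43 and 4.49, then 5.24 and 4.92 (difference 0.69 ± 0.13 SE, adjusted p = 0.106). Nags, which codes for N-acetylglutamate synthase, differed by -0.18 ± 0.04 (adjusted p = 0.152). Both genes were dim, under the median of all probe sets on all 5 arrays. The unstimulated values of Gatm lay at or under the lower quartile. Nos2, which codes for the inducible nitric oxide synthase and so for a rival of arginase for arginine, was dim too, between 5.30 and 5.42 on all 5 arrays. Its difference was -0.04 ± 0.04 (adjusted p = 0.654).

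On the ornithine-to-proline side, 4 of 7 listed genes were measured and none was called. Aldh18a1, whose product makes the proline and ornithine precursor from glutamate, differed by 0.57 ± 0.14 SE (adjusted p = 0.154), and Prodh, the proline-degrading enzyme gene, by -0.38 ± 0.08 (adjusted p = 0.123). The groups did not overlap for either, and the differences pointed in opposite directions.

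Of 4 genes for hypusine synthesis, all measured, none was called. Eif5a, which codes for the factor that carries hypusine, read 8.56, 8.85 and 8.93 unstimulated and 9.39 and 9.57 stimulated, a difference of 0.70 ± 0.15 SE or 1.62-fold (adjusted p = 0.119). Every stimulated value of this probe set was above every unstimulated one, as in 18.6% of all genes. With the mean over the probe sets of Eif5a the difference was smaller, at 0.45 ± 0.11 SE (adjusted p = 0.141). In the methionine salvage list, which recycles the by-product of spermidine and spermine synthesis, 6 of 8 genes were measured and none was called. All 6 differences were above 0, beside 53.3% over all genes, but they ran from only 0.05 to 0.54. The groups overlapped for 3 of the 6, and 3 held values repeated across arrays. None had an unadjusted limma p under 0.05, against 11.3% higher and 8.58% lower over all genes. Mtap, whose product takes the first step of that recycling, had 0.54 ± 0.21 SE (adjusted p = 0.308), the smallest p of the list.

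The antizyme and catabolism list had 3 of 7 genes measured, none called, with differences from -0.16 (Oaz3) to -0.01. The polyamine transport list had 5 of 5 measured, none called, with differences from -0.11 (Atp13a2) to 0.04. In both lists the differences of the measured genes were small beside that of Srm.

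**Figure D4:**
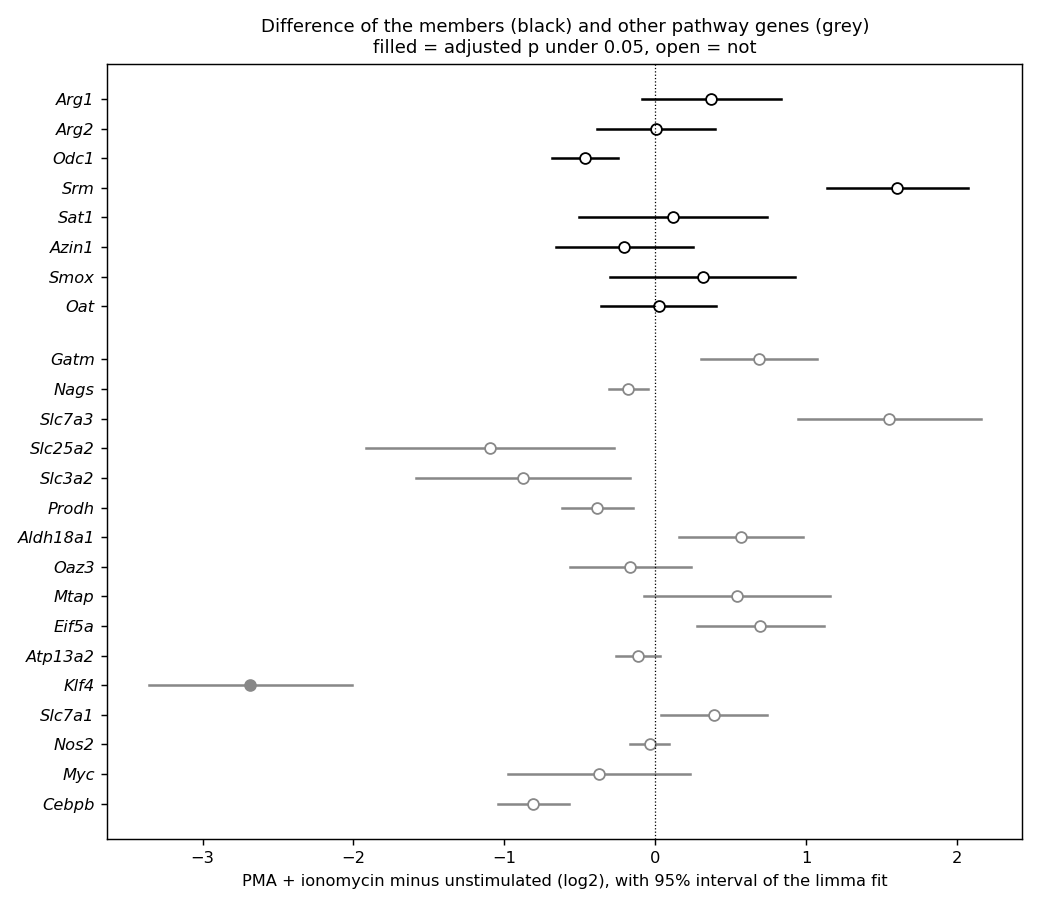
Difference between PMA and ionomycin and unstimulated samples (log2, horizontal axis) with its 95% interval from the limma fit, for the 8 measured members (black) and 16 of the named genes of the wider pathway (grey). Mycn is not shown. Only Klf4 has an adjusted p under 0.05 (filled), and Srm at 1.61 and Slc7a3 at 1.55 are the widest positive differences shown.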

How the data were processed

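Per the labels' protocols, RNA came from Trizol extraction, and cRNA made from 6 micrograms carried biotin on Affymetrix arrays of 1 colour. The deposited values are log2 expression values made with RMA, per the submitters' processing notes. The RMA version and the set of arrays it ran on are not given in the sources used here. No detection calls or coordinates were used, and 5 arrays limit the precision.

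Of 35556 probe sets, 21789 had 1 symbol, 1621 several and 12146 were not in the annotation. By Entrez number, 21698 matched RefSeq and no symbol changed. A gene with several probe sets was read from the one whose mean over all arrays was highest.

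Groups and replicates came from the titles. limma 3.58.1 in R 4.3.3 (lmFit, eBayes, no filter) compared 3 unstimulated with 2 stimulated arrays, with Benjamini-Hochberg adjustment over 19938 genes. Residual degrees of freedom were 3, and those of the prior 0.649. The script was tested on simulated data. Plots used matplotlib 3.10.9 in Python 3.11.15.

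Members and lists were chosen with earlier results of these data known. All members were named. In each list every called gene was named, or else up to 3 with the smallest p (those under 0.05 unadjusted, or the first). Slc7a1, Nos2, Myc, Mycn and Cebpb were named after their values were seen, as were the single marker genes. Mycn was not rerun under the alternatives. Alternatives covered variance moderation, array weights, filters, probe sets, normalization, thresholds, the replicate block and leaving out arrays. The fits with unstimulated array 3 alone, without genes holding repeated values, and all those for pathway genes were added after seeing the data.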

Additional observations from a re-analysis of the deposited data

How the results depend on the processing

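Each of the 8 members kept its direction in all alternatives run, except Arg2, Oat and Sat1. With the replicate number as a block, Arg2 turned to -0.097, Oat to -0.079 and Sat1 to -0.038. Replicate 3 exists only among the unstimulated samples, so the block gave the same differences as leaving out unstimulated array 3. The block also left fewer residual degrees of freedom, so a call lost with it need not mean a smaller difference. Leaving out single arrays gave -0.097 to 0.10 for Arg2, -0.079 to 0.12 for Oat and -0.038 to 0.26 for Sat1.

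The number of members called higher was 1 (Srm) and not 0 with an intensity trend, array weights, either filter on dim genes, median centring, quantile normalization, a threshold of 0.1, and genes with 5 different values only. The number called lower was 1 (Odc1) and not 0 with genes above the median, median centring, quantile normalization, a threshold of 0.1, and genes with 5 different values only. Both counts were 0 in all 5 fits that left out an array.

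Pathway genes called higher were 1 and not 0 with genes above the median, median centring, quantile normalization and a threshold of 0.1, and 4 with 5 different values only. Those called lower were 2 with an intensity trend, array weights or genes above the lower quartile, and 3 with genes above the median, median centring, quantile normalization or a threshold of 0.1. They were 5 with 5 different values only, 0 with robust variances, a threshold of 0.01, the replicate block or unstimulated array 3 alone, and 0 to 2 with an array left out.

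Over all genes, 147 higher and 192 lower became 45 and 66 with robust variances, 317 and 351 above the lower quartile, 824 and 716 above the median, 660 and 526 after median centring, 825 and 729 after quantile normalization, 755 and 695 at a threshold of 0.1, and 1548 and 1161 with 5 different values only. They were 0 and 0 at 0.01, with the replicate block and with unstimulated array 3 alone, and 0 to 361 and 0 to 413 with an array left out. Whether replicate numbers pair the arrays is not known. Deviations from the group mean correlated at -0.07 and -0.04 for same-numbered arrays. The deviations of 2 stimulated arrays always mirror each other, so these correlations cannot decide it.

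The change in the Arg1 to Arg2 ratio was 0.16 to 0.57, and that of Odc1 to Azin1 -0.33 to -0.21, with an array left out. The third ratio planned, Srm to Sms, was not run, since Sms gave no value. Dim genes such as Arg2 cannot be set apart from background without detection calls.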

Other observations

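Values equal to 5 decimals on 2 or more arrays were found in 37.5% of the 8 measured members, in 50% of the 52 other pathway genes and in 62.0% of all 19938 genes. Genes at the same value on several arrays can have little or no spread, though the unstimulated SD of Arg2 and of Oat was 0.20 (n = 3). With all genes holding repeated values left out, 7579 genes remained and Srm had an adjusted p of 0.00181 by limma, against 0.0510 with them. Of the 7579 genes, 2167 were higher at an unadjusted limma p under 0.05, against 2262 of all 19938. That filter reads both groups together and favours genes that differ, so its adjusted p-values may be too small. The range for Srm over its 16 alternatives was 0.00181 to 0.259.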
